A study of Arabidopsis thaliana with 12 samples.

Results

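The cysteine-rich receptor-like kinases (CRKs) described here are 35 genes of Arabidopsis thaliana, chosen by a list of gene identifiers from the 33602 in the deposited count table. RNA was sequenced from whole 7-day-old seedlings in 4 groups of 3 biological replicates, 12 libraries in all. The groups were gp1-2 exposed to the volatiles of the bacterium GB03, gp1-2 without bacteria, wild-type Col-0 exposed to GB03 volatiles, and wild-type Col-0 without bacteria. gp1-2 is a T-DNA insertion line in the Col-0 background. GB03 is a plant growth-promoting Bacillus strain. Every group grew on half-strength Murashige and Skoog medium with 1% sucrose at 22 °C, with days of 16 h and nights of 8 h. Seedlings were moved to a divided plate at 5 days of age and kept there for 2 days. A single insertion line stands for the genotype, and whole seedlings mix root and shoot cells.

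CRKs form a large family of plant receptor-like kinases. A typical member has an outer part with DUF26 domains, a membrane-spanning segment and an inner serine/threonine kinase. The conserved cysteines of these domains give the family its name. Many CRK genes are induced by salicylic acid, by pathogens or by reactive oxygen species, and the products of several have been tied to immune signalling, stomatal closure and cell death. Strong expression of CRK4, CRK5, CRK19 or CRK20 has been found to trigger cell death, and CRK13 overexpression to raise resistance that needs salicylic acid.

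The 35 genes lie mostly side by side. On assembly TAIR10.1, 20 of them, CRK5 to CRK24, fill a tandem array at chr4:12117491-12191704, a stretch of 74.2 kb with 1 other protein-coding gene. Another 5, CRK36 to CRK40, lie at chr4:2231717-2292965 within 61.2 kb, also with 1 other protein-coding gene. The other 10 are scattered over chromosomes 1, 3, 4 and 5. RefSeq lists CRK9 under the symbol EP1, CRK17 as EMB1290 and CRK45 as ARCK1. The coding sequence of each member was 64.0% to 91.2% identical to that of its closest relative among the 35. Of their exon sequence, under 1% recurred elsewhere in the genome as exact 50-base words in 19 members, and 5% or more in 6. Those 6 were CRK6 (22.0%), CRK8 (16.5%), CRK22 (16.2%), CRK13 (15.4%), CRK20 (6.72%) and CRK39 (5.38%), and reads from such stretches cannot be assigned with certainty. The annotated models of CRK10 and CRK11 overlap on opposite strands, and those of CRK16 and CRK17, and of CRK28 and CRK29, overlap on the same strand. Neither the strand setting nor the handling of shared reads is given in the sources used here, so counts of these 6 genes may include a neighbour's reads.

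Sequences upstream of CRK genes are of interest because the CRK10 promoter is known to hold W boxes, the sites bound by salicylate-induced WRKY factors. The core of the W box, TTGAC, was searched on both strands in the 300 bases before each annotated gene start. It was present in 26 of the 35 members (74.3%), against 13832 of 27443 protein-coding genes (50.4%). At least 3 matches were found in 8 members (22.9%), against 1391 of all protein-coding genes (5.07%). The mean number of matches was 1.6 per member and 0.748 per gene overall. A match describes letters only, and many of the members are copies of each other, so their upstream sequences are not independent. The 300 bases are printed for CRK11, which held the most matches, for CRK37 and CRK7, which had the largest fitted rises in gp1-2, and for CRK42 and CRK21, which were lower in gp1-2. They run 5′ to 3′ towards the gene, from TAIR10.1, with TTGAC or its reverse complement GTCAA in capitals.
CRK11 (chr4:12143859-12144158, minus strand): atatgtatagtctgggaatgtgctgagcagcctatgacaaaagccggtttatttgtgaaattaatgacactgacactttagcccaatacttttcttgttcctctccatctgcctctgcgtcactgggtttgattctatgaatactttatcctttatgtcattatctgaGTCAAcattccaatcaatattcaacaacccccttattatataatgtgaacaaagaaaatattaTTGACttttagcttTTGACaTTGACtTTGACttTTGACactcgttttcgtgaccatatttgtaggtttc
CRK37 (chr4:2238070-2238369, plus strand): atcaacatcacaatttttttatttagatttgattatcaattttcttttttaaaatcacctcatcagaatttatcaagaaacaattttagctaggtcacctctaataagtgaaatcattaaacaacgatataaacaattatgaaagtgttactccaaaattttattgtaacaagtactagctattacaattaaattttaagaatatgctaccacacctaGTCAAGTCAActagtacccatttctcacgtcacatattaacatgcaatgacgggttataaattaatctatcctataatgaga
CRK7 (chr4:12125364-12125663, plus strand): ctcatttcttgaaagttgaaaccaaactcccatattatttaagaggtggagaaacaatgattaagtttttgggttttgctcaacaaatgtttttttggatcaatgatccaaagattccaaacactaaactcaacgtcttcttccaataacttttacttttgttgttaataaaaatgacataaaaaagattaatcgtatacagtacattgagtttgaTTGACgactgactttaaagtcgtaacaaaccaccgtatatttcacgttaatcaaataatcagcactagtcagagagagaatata
CRK42 (chr5:16151222-16151521, plus strand): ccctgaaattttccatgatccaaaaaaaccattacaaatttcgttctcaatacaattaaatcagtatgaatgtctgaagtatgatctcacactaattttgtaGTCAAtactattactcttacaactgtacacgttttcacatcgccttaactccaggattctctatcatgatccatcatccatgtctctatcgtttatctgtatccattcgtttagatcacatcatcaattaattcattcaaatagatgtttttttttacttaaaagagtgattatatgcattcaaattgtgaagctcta
CRK21 (chr4:12180937-12181236, minus strand): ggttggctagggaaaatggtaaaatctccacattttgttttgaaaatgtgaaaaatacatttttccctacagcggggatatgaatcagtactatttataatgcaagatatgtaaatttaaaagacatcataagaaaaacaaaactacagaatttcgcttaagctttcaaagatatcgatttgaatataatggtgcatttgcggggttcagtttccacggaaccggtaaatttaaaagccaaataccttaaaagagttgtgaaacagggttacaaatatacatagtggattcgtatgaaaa
CRK11 held 6 matches, of which 5 stand close together just before the start. CRK37 held 2 adjoining matches, CRK7 and CRK42 held 1 each, and CRK21 held none. Of the members not printed, CRK3, CRK12, CRK13, CRK19, CRK28, CRK40 and CRK45 also held none and were called higher in gp1-2 in both conditions. CRK22 held none either and was called higher in gp1-2 with volatiles only. CRK10 held 1 match. Whether matches go with the genotype difference was not tested.

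The libraries held 11158051 to 25214934 counts, and each gp1-2 library was deeper than every wild-type library. The labels name no locus for the insertion. The series title names a stearoyl-ACP desaturase, and FAB2, the main desaturase of this class, was higher in the libraries labelled gp1-2 (644 ± 80.9 CPM with volatiles and 679 ± 82.8 CPM without) than in wild type (176 ± 7.79 CPM with volatiles and 122 ± 5.33 CPM without; SD, n = 3 each). In each group replicates 1 and 2 were closest: the chi-square of counts per degree of freedom was 2.58 to 8.10 between them, and 9.28 to 15.3 in pairs with replicate 3. In untreated wild type the gap was small, with 8.10 between replicates 1 and 2 and 9.28 between replicates 2 and 3. The counts of calls were therefore also made without replicate 3. Levels are given in CPM, read counts scaled to the depth of each library. Calls rest on an adjusted p below 0.05 in edgeR's quasi-likelihood test, with Benjamini-Hochberg adjustment over the 20736 genes that passed the filter on low counts. All 35 members passed that filter, which asked for 0.593 CPM in at least 3 libraries. For 11 members it was reached only with gp1-2 libraries, so these had to differ between the genotypes. They are CRK6, CRK7, CRK8, CRK15, CRK20, CRK23, CRK24, CRK36, CRK37, CRK38 and CRK39. Their genotype differences are given as a description, without p-values, and counts for the other 24 members are given separately.

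In wild type many CRK genes were close to silent, and in gp1-2 each of them had a measurable level. Mean levels were below 1 CPM for 0 members in gp1-2 with volatiles and 0 in untreated gp1-2, against 13 in wild type with volatiles and 13 in untreated wild type. At the other end, 28 members reached 10 CPM in gp1-2 with volatiles and 26 in untreated gp1-2, against 14 in each wild-type group. The 35 genes summed to 1837 ± 62.9 CPM in gp1-2 with volatiles and 1794 ± 125 CPM in untreated gp1-2, against 470 ± 49.4 CPM in wild type with volatiles and 543 ± 59.4 CPM in untreated wild type (SD, n = 3 each). No library of gp1-2 overlapped a wild-type library in this sum. Adjusted for exon length, the order of the genes also differed. In untreated gp1-2, CRK4 (84.2 ± 15.3 CPM per kb) and CRK45 (83.5 ± 6.65) led and did not differ beyond their spread, and CRK10 followed at 69.9 ± 7.64 CPM per kb. In gp1-2 with volatiles, CRK45 led at 92.1 ± 4.38 CPM per kb, followed by CRK9 at 68.7 ± 1.01 and CRK7 at 62.9 ± 3.89. In wild type with volatiles, CRK10 (24.7 ± 7.79 CPM per kb) and CRK40 (23.9 ± 2.78) did not differ beyond their spread. In untreated wild type CRK10 stood first at 51.6 ± 10.4 CPM per kb and CRK19 followed at 27.0 ± 3.12.

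**Figure D1:**
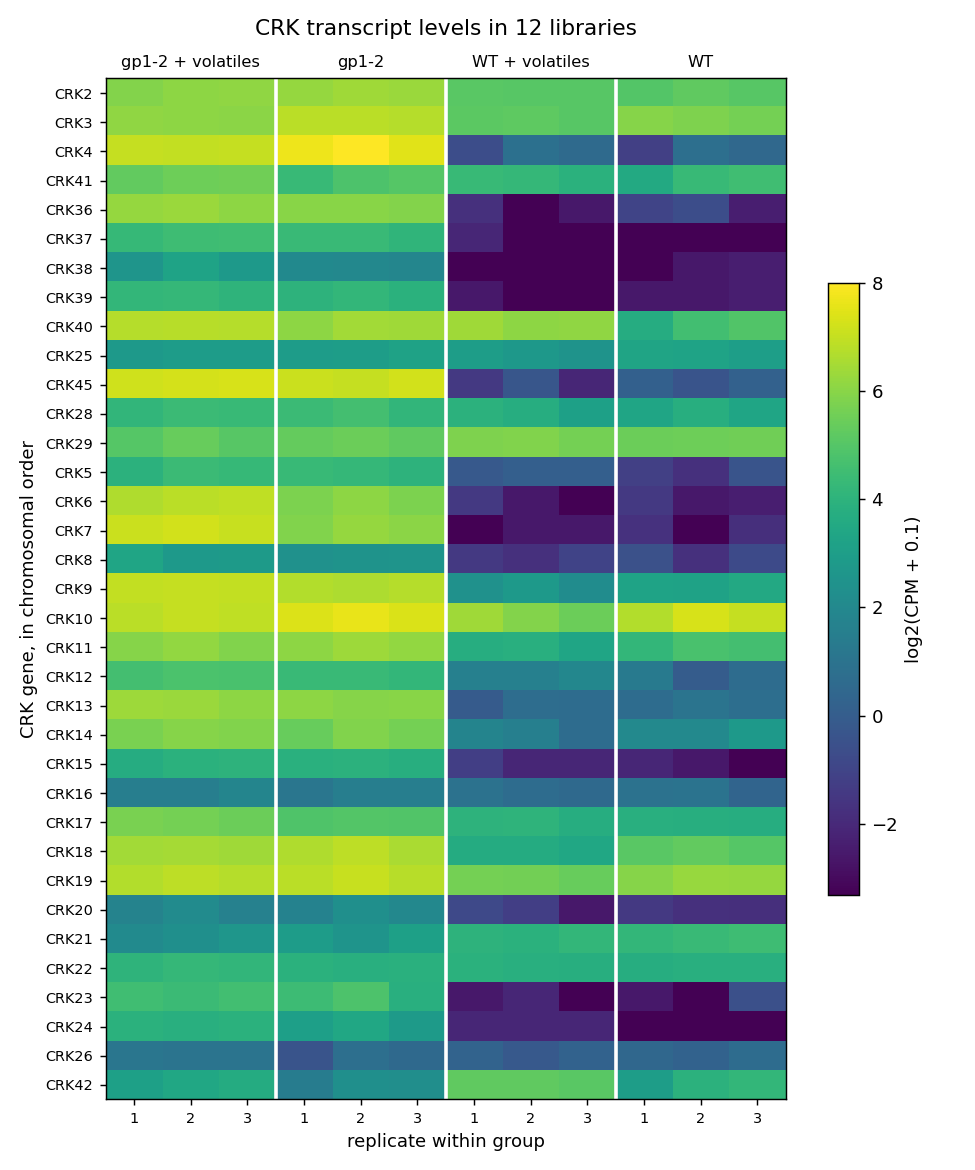
Level of each of the 35 CRK genes (rows, in chromosomal order) in each of the 12 libraries (columns), as log2(CPM + 0.1) on the colour scale. The genes from CRK36 to CRK39, CRK45, CRK6, CRK7, CRK23 and CRK24 are dark in the 6 wild-type columns and bright in the 6 gp1-2 columns, while CRK42 and CRK21 are brighter in wild type.

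The comparison of genotypes without bacteria asked how the family differed in unexposed seedlings. CRK genes were mostly higher in gp1-2, many by a very large factor. Of the 35 members, 28 were called (80%), against a background of 37.2% of the genes tested. Higher calls numbered 26 (74.3% of members, background 20.0%) and lower calls 2 (CRK42 and CRK21, background 17.2%). The higher calls include each of the 11 members that passed the filter only with gp1-2 libraries. Of the other 24 members, 15 were higher (62.5%) and 2 lower (8.33%). With upper-quartile scaling the calls over all genes were 3406 higher and 4769 lower, against 4156 higher and 3567 lower with the scaling used here. The median log2 fold change was 3.37 over the members and -0.02 over the genes tested, and 13 called members had a fitted log2 fold change of 5 or more. The median and these 13 include members that passed the filter only with gp1-2 libraries. The members not called were CRK10, CRK16, CRK22, CRK25, CRK26, CRK29 and CRK41, with log2 fold changes between -0.17 (CRK29) and 0.63 (CRK16).

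The same comparison under volatiles called 34 members (97.1%, background 45.9%). These were 31 higher (88.6% of members, background 22.6%) and 3 lower, CRK42, CRK21 and CRK29 (background 23.3%). Of the 24 members that reached the filter in wild type too, 20 were higher (83.3%) and 3 lower (12.5%). CRK25 alone was not called, at a log2 fold change of 0.15 ± 0.14 (SE). The median over all members, those that passed only with gp1-2 libraries included, was 3.04, against -0.04 over the genes tested. The 28 members called without bacteria were all called again in the same direction, 26 higher and 2 lower, which is 82.4% of the 34 called with volatiles. They include the 11 members that passed the filter only with gp1-2 libraries, whose repeat is a description only. Of the other 24 members, the 15 higher and 2 lower calls without bacteria were repeated. Over the genes tested, 6317 were called in both comparisons (81.8% of those without bacteria and 66.3% of those with volatiles), 99.5% of them in the same direction. Among the 24 members that reached the filter in wild type too, the 15 higher and 2 lower calls without bacteria held in each alternative fit tried. The calls of the 11 members held as well, which is again a description only. Over all members, 31 of the 34 calls with volatiles held. CRK40, CRK22 and CRK26, which were called higher with volatiles, were the exceptions. CRK40 (0.55) lost its call without any 1 of the gp1-2 libraries with volatiles, or without wild-type volatile replicate 2 or 3 (0.49 to 0.56). CRK22 (0.30) lost it without gp1-2 volatile replicate 2 (0.26), and CRK40 and CRK22 both lost it with upper-quartile scaling (0.47 and 0.22). CRK26 (0.98) lost it without wild-type volatile replicate 2 (0.83). All 3 lost it with replicate 3 left out of each group, at 0.52, 0.26 and 1.07 for CRK40, CRK22 and CRK26.

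**Figure D2:**
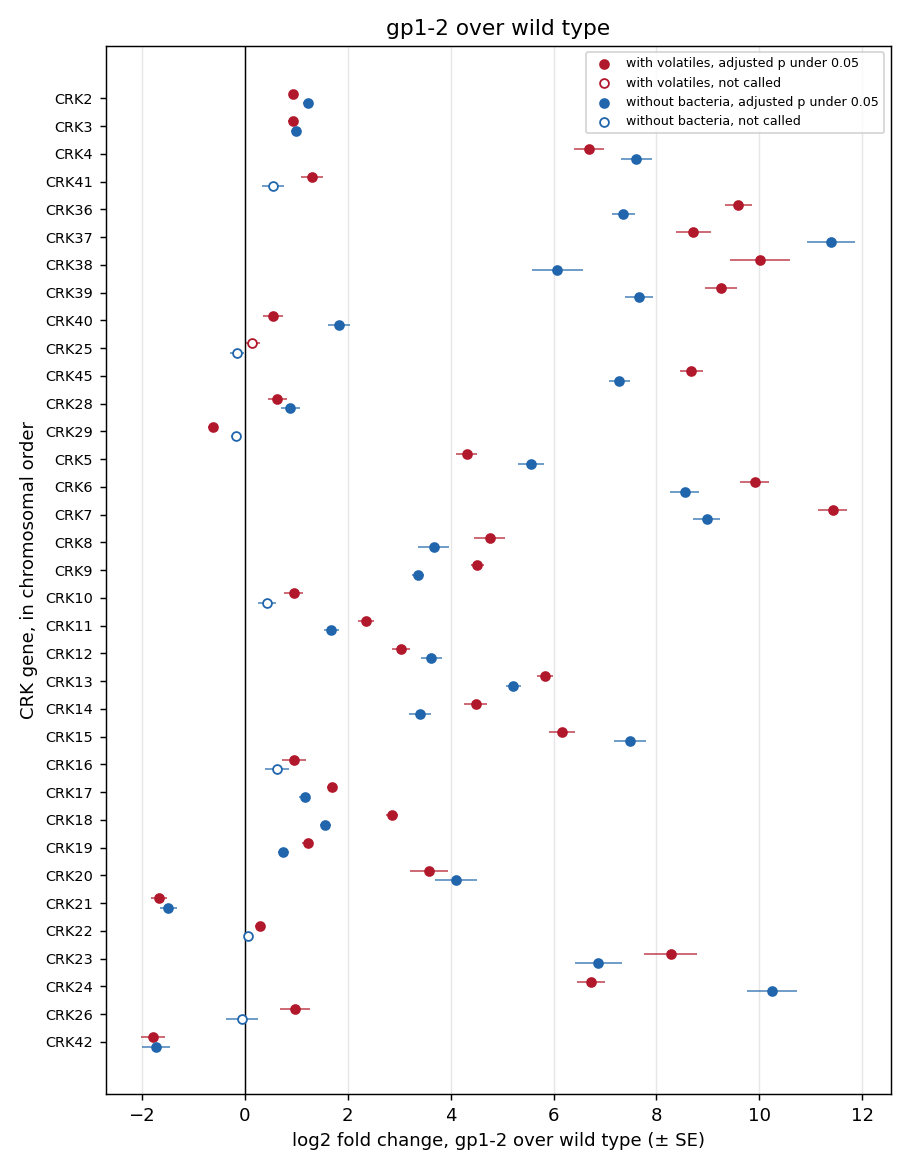
Fitted log2 fold change of gp1-2 over wild type (horizontal axis, bars are SE) for each CRK gene (vertical axis), with volatiles in red and without bacteria in blue; filled points passed an adjusted p of 0.05. Most points lie right of 0, and CRK21 and CRK42 lie left of it in both conditions. For genes with 0 to 3 counts in a wild-type group (CRK37 without bacteria, for example) the fitted value depends on the prior count. Where wild type had few counts, the bars can be smaller than the counting error.

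CRK36 to CRK40, the smaller chromosome 4 group, were all called higher in gp1-2 in both conditions (background 22.6% with volatiles and 20.0% without). Of these genes, 4 were among the 11 members that passed the filter only with gp1-2 libraries. CRK36 is known to interact with the immune kinase BIK1 and with CRK45. CRK36 (AT4G04490) was at 74.5, 77.8 and 67.4 CPM in gp1-2 with volatiles, against 0.20, 0 and 0.0647 CPM in wild type with volatiles. CRK36 without bacteria was at 63.8, 63.7 and 59.4 CPM in gp1-2, against 0.406, 0.536 and 0.0956 CPM in wild type. The lowest gp1-2 library was thus far above the highest wild-type library in both conditions. The log2 fold change of CRK36 was 9.59 with volatiles and 7.36 without, where wild type had only 4 and 15 counts.

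CRK37 had no count in untreated wild type. CRK37 (AT4G04500) was at 19.1, 22.4 and 22.9 CPM in gp1-2 with volatiles, against 0.133, 0 and 0 CPM in wild type with volatiles. CRK37 without bacteria was at 20.4, 20.3 and 16.9 CPM in gp1-2, against 0, 0 and 0 CPM in wild type. Taking 3 counts over the untreated wild-type group as the floor, CRK37 was at least 256.5-fold higher in untreated gp1-2. With volatiles the ratio was 493 (95% counting interval 136 to 4072), from 1466 and 2 counts. CRK38 (AT4G04510) was at 5.84, 9.31 and 6.91 CPM in gp1-2 with volatiles, against 0, 0 and 0 CPM in wild type with volatiles. CRK38 without bacteria was at 4.02, 3.87 and 3.60 CPM in gp1-2, against 0, 0.0671 and 0.0956 CPM in wild type. CRK38 was at least 112-fold higher with volatiles, and 76.9-fold higher without (95% counting interval 21.0 to 639). CRK39 followed the same course, with 1199 counts over the gp1-2 libraries with volatiles against 1 in wild type, and 909 against 3 without bacteria.

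CRK40, the last gene of this group, differed from its neighbours in having a sizeable level in wild type. CRK40 (AT4G04570) was at 107, 110.5 and 108 CPM in gp1-2 with volatiles, against 84.0, 68.1 and 70.2 CPM in wild type with volatiles. CRK40 without bacteria was at 67.3, 87.2 and 84.4 CPM in gp1-2, against 12.7, 24.1 and 30.8 CPM in wild type. The genotypes did not overlap in either condition, but they lay closer together under volatiles. The log2 fold change was 0.55 ± 0.20 with volatiles (adjusted p = 0.034, edgeR) and 1.84 ± 0.21 without (adjusted p = 5.5e-06, edgeR).

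In the tandem array CRK5 to CRK24, 19 of 20 genes were called higher and 1 lower in gp1-2 with volatiles (background 22.6% and 23.3%). Without bacteria 16 were higher, 1 was lower (background 20.0% and 17.2%) and 3 were not called. Of these genes, 7 passed the filter only with gp1-2 libraries. The median log2 fold changes over the array were 3.95 and 3.52. CRK6 and CRK7, neighbours known for a role in the response to reactive oxygen species outside the cell, were among the genes with the largest differences. CRK7 (AT4G23150) was at 137, 150.5 and 134 CPM in gp1-2 with volatiles, against 0, 0.0658 and 0.0647 CPM in wild type with volatiles. CRK7 without bacteria was at 57.6, 74.8 and 66.4 CPM in gp1-2, against 0.203, 0 and 0.191 CPM in wild type. With volatiles these came from 9525 and 2 counts, a ratio of 3201 (95% counting interval 886 to 26440). Without bacteria the log2 fold change of CRK7 was 8.97, where wild type had only 5 counts.

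CRK6 (AT4G23140) was at 101, 115 and 119.6 CPM in gp1-2 with volatiles, against 0.267, 0.0658 and 0 CPM in wild type with volatiles. CRK6 without bacteria was at 54.0, 67.1 and 54.8 CPM in gp1-2, against 0.270, 0.0671 and 0.0956 CPM in wild type. Both genes were near the detection limit in each wild-type library and far above it in each gp1-2 library. The log2 fold change of CRK6 was 9.91 with volatiles and 8.55 without, where wild type had only 5 and 6 counts.

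CRK24 lies at the far end of the array. CRK24 (AT4G23320) was at 14.9, 14.3 and 14.8 CPM in gp1-2 with volatiles, against 0.133, 0.132 and 0.129 CPM in wild type with volatiles. CRK24 without bacteria was at 8.43, 10.6 and 7.20 CPM in gp1-2, against 0, 0 and 0 CPM in wild type. Relative to 3 counts over the untreated wild-type group, CRK24 was at least 117-fold higher in untreated gp1-2. CRK23, its neighbour, was at 20.9 to 23.8 CPM in gp1-2 with volatiles, against 0 to 0.132 CPM in wild type with volatiles, and at 14.0 to 28.6 CPM in untreated gp1-2, against 0 to 0.574 CPM in untreated wild type.

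CRK9 (AT4G23170) was at 125, 127 and 124 CPM in gp1-2 with volatiles, against 5.27, 6.71 and 4.40 CPM in wild type with volatiles. CRK9 without bacteria was at 103, 97.2 and 106 CPM in gp1-2, against 9.46, 9.05 and 11.3 CPM in wild type. With a coding sequence of 798 bases, CRK9 is the shortest of the members, and its genotypes were well separated. The log2 fold change was 4.52 ± 0.13 with volatiles and 3.37 ± 0.12 without (adjusted p = 4e-13 and 6.4e-12, edgeR). CRK18 (AT4G23260) was at 86.1, 89.4 and 82.8 CPM in gp1-2 with volatiles, against 12.5, 12.3 and 10.6 CPM in wild type with volatiles. CRK18 without bacteria was at 100.2, 119 and 96.4 CPM in gp1-2, against 34.7, 39.3 and 31.9 CPM in wild type. Its log2 fold change was 2.86 ± 0.11 with volatiles and 1.57 ± 0.10 without (adjusted p = 1.4e-11 and 1e-08, edgeR).

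Other genes of the array spanned a wide range. CRK5, CRK13, CRK15 and CRK20 were near or below 2 CPM in wild type, and their log2 fold changes were 4.32, 5.84, 6.16 and 3.59 with volatiles. Without bacteria those of CRK5, CRK13 and CRK20 were 5.57, 5.22 and 4.11, and CRK15, with 808 counts in gp1-2 against 3 in wild type, stood at a ratio of 196 (95% counting interval 66.9 to 954). CRK19, another gene tied to cell death, was already abundant in wild type (41.8 to 50.1 CPM with volatiles and 61.4 to 76.4 CPM without), and its log2 fold change was 1.22 with volatiles and 0.75 without. CRK11, induced by salicylic acid and pathogens, had 2.35 and 1.69, CRK8 4.76 and 3.67, CRK12 3.04 and 3.62, CRK14 4.49 and 3.41, and CRK17 1.69 and 1.16, each with volatiles and without. CRK16 and CRK22 had 0.96 and 0.30 with volatiles and uncalled values of 0.63 and 0.07 without.

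CRK10, the gene whose W boxes are known, had the highest level per kb of the members in untreated wild type. CRK10 (AT4G23180) was at 116, 128 and 122 CPM in gp1-2 with volatiles, against 84.0, 59.8 and 44.7 CPM in wild type with volatiles. CRK10 without bacteria was at 168, 200.1 and 165 CPM in gp1-2, against 106, 158 and 129.9 CPM in wild type. The groups did not overlap in either condition, and the call was made only with volatiles, at a log2 fold change of 0.96 ± 0.18 (adjusted p = 0.00049, edgeR). Without bacteria it was 0.44 ± 0.18 (adjusted p = 0.071, edgeR), which passed the threshold without untreated wild-type replicate 2 or without wild-type volatile replicate 1 or 3 (0.44 to 0.60). With the replicate number as a block CRK10 was called as well (0.44, adjusted p = 0.048, edgeR).

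CRK21 went against its neighbours in the array. CRK21 (AT4G23290) was at 4.21, 4.86 and 6.17 CPM in gp1-2 with volatiles, against 15.8, 15.1 and 17.8 CPM in wild type with volatiles. CRK21 without bacteria was at 7.5, 5.64 and 8.57 CPM in gp1-2, against 18.3, 20.3 and 22.2 CPM in wild type. Each gp1-2 library was below each wild-type library. CRK21 fell by 1.66 ± 0.16 on the log2 scale with volatiles and by 1.48 ± 0.16 without (adjusted p = 5.2e-07 and 2.4e-06, edgeR).

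Of the 10 genes outside both groups, 7 were called higher, 2 lower and 1 not at all with volatiles, and without bacteria 5 were higher, 1 lower and 4 not called. The background was 22.6% higher and 23.3% lower with volatiles, and 20.0% higher and 17.2% lower without. The lower calls were thus no more than the background share. CRK4 (AT3G45860) was at 129, 123 and 129 CPM in gp1-2 with volatiles, against 0.534, 1.71 and 1.42 CPM in wild type with volatiles. CRK4 without bacteria was at 211, 257 and 179 CPM in gp1-2, against 0.338, 1.68 and 1.34 CPM in wild type. Even the lowest gp1-2 library was far above the highest wild-type library. Its log2 fold change was 6.69 ± 0.29 with volatiles and 7.61 ± 0.30 without (adjusted p = 3.6e-11 and 1.7e-11, edgeR).

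CRK45, also named ARCK1, is a cytosolic kinase of the family known from abscisic acid and osmotic stress responses, with a coding sequence of 1065 bases. CRK45 (AT4G11890) was at 147, 156 and 162 CPM in gp1-2 with volatiles, against 0.267, 0.724 and 0.129 CPM in wild type with volatiles. CRK45 without bacteria was at 139, 130.2 and 152 CPM in gp1-2, against 1.01, 0.671 and 1.05 CPM in wild type. Its log2 fold change was 8.67 with volatiles and 7.28 without (adjusted p = 1.3e-13 and 3.6e-13, edgeR), where wild type had 17 and 36 counts. CRK45 and CRK36, whose proteins are known to interact, were thus both near the detection limit in wild type and both high in gp1-2.

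CRK2, which acts on the oxidase RBOHD, and its neighbour CRK3 differed less. CRK3 (AT1G70530) was at 70.3, 67.9 and 65.6 CPM in gp1-2 with volatiles, against 36.0, 36.8 and 33.7 CPM in wild type with volatiles. CRK3 without bacteria was at 113, 114 and 106 CPM in gp1-2, against 60.8, 56.3 and 49.4 CPM in wild type. The log2 fold change of CRK3 was 0.94 ± 0.09 with volatiles and 1.00 ± 0.09 without (adjusted p = 3.9e-07 and 2.5e-07, edgeR), and that of CRK2 was 0.95 and 1.23. CRK28, which associates with the co-receptor BAK1, had 0.64 with volatiles and 0.89 without; with replicate 3 left out of each group its value with volatiles was 0.40. CRK41 was called with volatiles only, at 1.31. Without bacteria it was at 0.55 (adjusted p = 0.054, edgeR), and it was called with the replicate number as a block (0.56, adjusted p = 0.023, edgeR). Without untreated wild-type replicate 3, wild-type volatile replicate 3 or untreated gp1-2 replicate 1 it was also called (0.56 to 0.76).

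CRK42 and CRK29 were the members outside the array that were lower in gp1-2. CRK42 (AT5G40380) was at 8.51, 10.6 and 12.5 CPM in gp1-2 with volatiles, against 37.6, 37.4 and 34.1 CPM in wild type with volatiles. CRK42 without bacteria was at 2.65, 4.92 and 4.71 CPM in gp1-2, against 7.77, 15.6 and 17.9 CPM in wild type. It fell by 1.78 ± 0.23 on the log2 scale with volatiles and by 1.73 ± 0.27 without (adjusted p = 1e-05 and 0.00013, edgeR). CRK29 (AT4G21410) was at 32.2, 41.1 and 33.0 CPM in gp1-2 with volatiles, against 56.3, 57.5 and 49.3 CPM in wild type with volatiles. CRK29 without bacteria was at 40.3, 43.7 and 37.7 CPM in gp1-2, against 44.2, 45.7 and 46.8 CPM in wild type. CRK29 fell by 0.62 ± 0.10 with volatiles (adjusted p = 0.00013, edgeR) and was not called without (-0.17 ± 0.10).

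**Figure D3:**
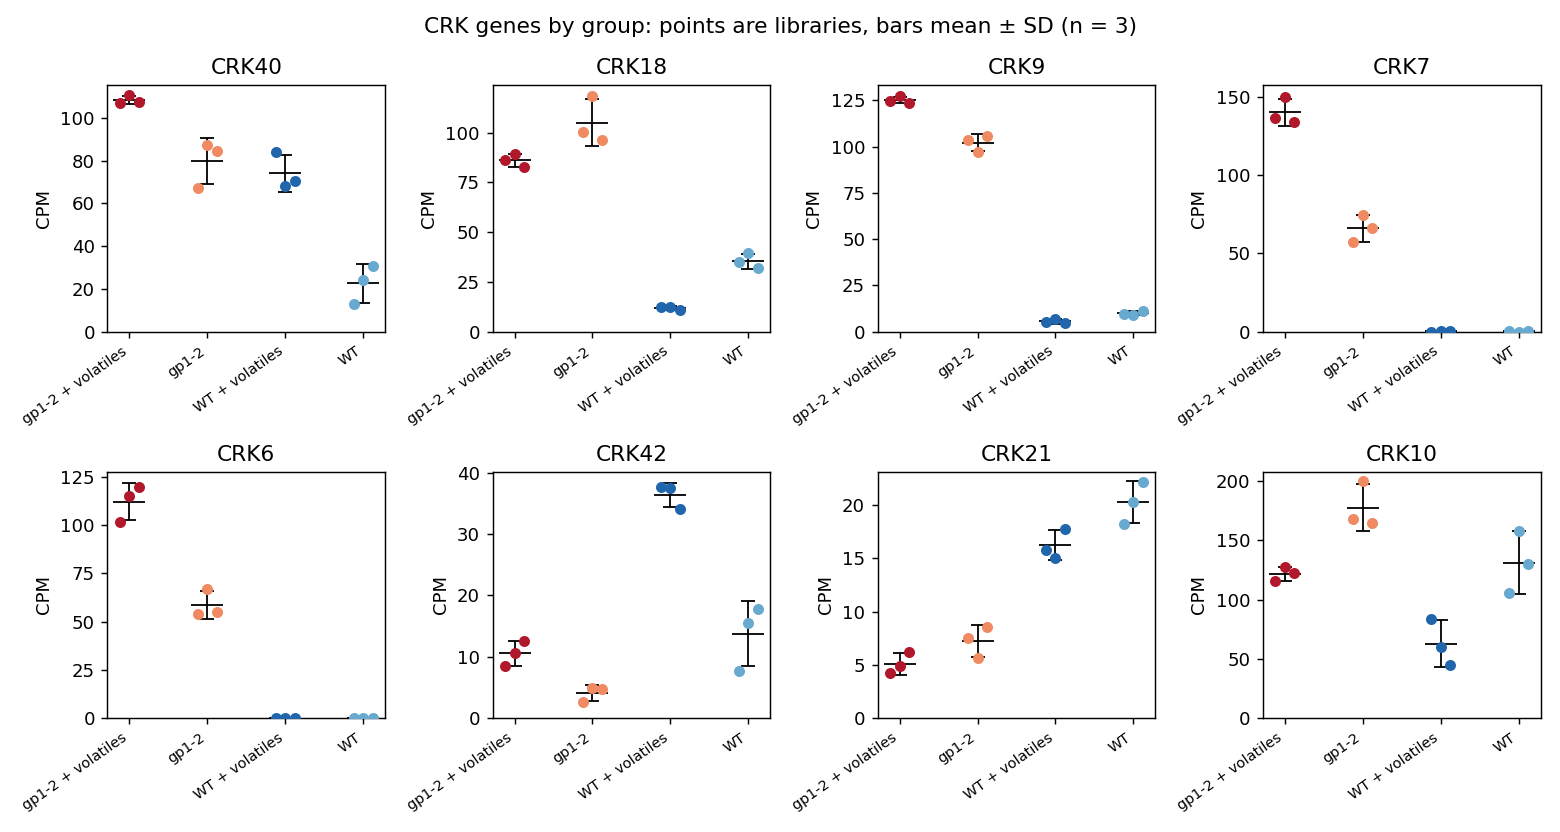
Level in CPM (vertical axes, linear from 0) of 8 CRK genes in the 4 groups; points are libraries and bars the mean ± SD (n = 3). CRK7 and CRK6 sit near 0 in both wild-type groups and are higher in gp1-2 with volatiles than without, CRK42 and CRK21 are lower in gp1-2, and CRK40, CRK18 and CRK9 are the genes whose response to volatiles differed between genotypes.

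Between seedlings with and without volatiles the fold changes of CRK genes were mostly smaller, and calls went in both directions. In gp1-2, 17 members were called (48.6%, background 32.3%), 11 of them higher with volatiles (31.4% of members, background 14.7%) and 6 lower (background 17.6%). Among the 11 members that passed the filter only with gp1-2 libraries, 5 were higher and 0 lower. The other 24 members gave 6 higher (25%) and 6 lower (25%) calls. Over all members, upper-quartile scaling gave 12 higher and 3 lower. In wild type, 15 were called (42.9%, background 30.1%), 5 higher (14.3% of members, background 14.8%) and 10 lower (background 15.3%). Here the 11 members that passed only with gp1-2 libraries gave 1 higher and 1 lower call. The other 24 members gave 4 higher (16.7%) and 9 lower (37.5%). The median log2 fold change over the members was 0.16 in gp1-2 and -0.34 in wild type, against medians of -0.003 and 0 over the genes tested. In wild type the median was -0.33 over 32 members, with CRK24 at its bound and without CRK37, CRK38 and CRK39, which were at or under 3 counts in both groups. Of the members called, 7 were shared between the genotypes (41.2% of those in gp1-2 and 46.7% of those in wild type). Over the genes tested, 3939 were called in both genotypes (58.7% of those in gp1-2 and 63.1% of those in wild type), 98% of them in the same direction. Among the 7 shared members, CRK12, CRK24 and CRK42 were higher with volatiles in both genotypes and CRK3, CRK10 and CRK18 lower in both. The other, CRK9, was higher in gp1-2 and lower in wild type. Of the members called, 15 in gp1-2 and 6 in wild type had a log2 fold change under 1 in size. Many calls were close to the threshold, and 7 of the 17 in gp1-2 and 8 of the 15 in wild type held in each alternative fit.

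The calls that held in each fit in gp1-2 were those of CRK6, CRK7, CRK17, CRK24, CRK38 and CRK42, all higher with volatiles, and of CRK3, which was lower. CRK7 (137, 150.5 and 134 CPM in gp1-2 with volatiles, against 57.6, 74.8 and 66.4 CPM in untreated gp1-2) changed by 1.08 ± 0.12 on the log2 scale (adjusted p = 1e-05, edgeR). CRK6 changed by 0.93 ± 0.13 (adjusted p = 7.3e-05, edgeR), and CRK38 by 0.94 ± 0.20 (adjusted p = 0.003, edgeR). In each of these genes the libraries with volatiles were all above those without. CRK17, listed as EMB1290 for an embryo-defective mutant, changed by 0.68 ± 0.09 and CRK24 by 0.75 ± 0.14. In untreated wild type CRK7 had only 5 counts and CRK38 2, against 2 and 0 in wild type with volatiles. A fall of these genes in wild type was thus not detectable at this depth.

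CRK42 was called higher with volatiles in both genotypes. With volatiles it was at 8.51, 10.6 and 12.5 CPM in gp1-2, against 2.65, 4.92 and 4.71 CPM without, a log2 fold change of 1.37 ± 0.27 (adjusted p = 0.0011, edgeR). In wild type CRK42 was at 37.6, 37.4 and 34.1 CPM with volatiles, against 7.77, 15.6 and 17.9 CPM without, a log2 fold change of 1.42 ± 0.23 (adjusted p = 0.00034, edgeR). The difference between the 2 responses was -0.05 ± 0.36. CRK3 was lower with volatiles in both, at -0.71 ± 0.09 in gp1-2 and -0.65 ± 0.09 in wild type, with a difference of -0.06 ± 0.12.

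In wild type the calls that held in each fit were those of CRK40 and CRK42, which were higher with volatiles, and of CRK3, CRK9, CRK10, CRK11, CRK18 and CRK19, which were lower. CRK18 was at 12.5, 12.3 and 10.6 CPM in wild type with volatiles, against 34.7, 39.3 and 31.9 CPM in untreated wild type, and fell by 1.58 ± 0.11 on the log2 scale (adjusted p = 1.7e-07, edgeR). CRK10, at 84.0, 59.8 and 44.7 CPM with volatiles, against 106, 158 and 129.9 CPM without, fell by 1.06 ± 0.18 (adjusted p = 0.00054, edgeR). The libraries of both genes did not overlap between the conditions. CRK11 fell by 0.89 ± 0.16, CRK9 by 0.85 ± 0.14 and CRK19 by 0.60 ± 0.11. CRK40 had the largest called rise of the members above 1 CPM, at 84.0, 68.1 and 70.2 CPM in wild type with volatiles, against 12.7, 24.1 and 30.8 CPM in untreated wild type (log2 fold change 1.73 ± 0.21, adjusted p = 2.9e-05, edgeR).

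**Figure D4:**
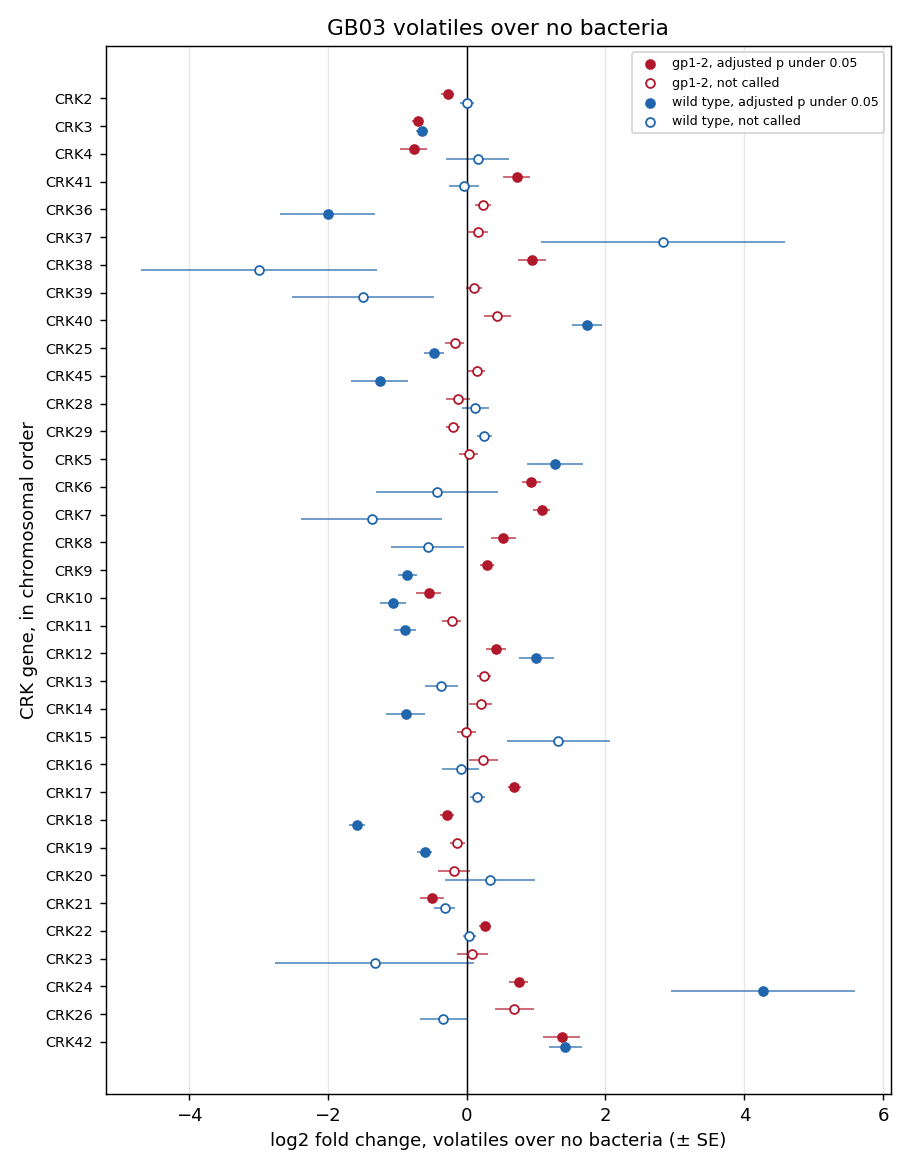
Fitted log2 fold change of GB03 volatiles over no bacteria (horizontal axis, bars are SE) for each CRK gene (vertical axis), with gp1-2 in red and wild type in blue; filled points passed an adjusted p of 0.05. CRK42 lies near 1.4 in both genotypes, CRK40 and CRK18 lie apart between them, and the long bars belong to genes with few counts in wild type.

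The other 10 calls in gp1-2 were lost in some fits, and the values in parentheses after the libraries are from the fits where the call was lost. CRK4, at 129, 123 and 129 CPM in gp1-2 with volatiles, against 211, 257 and 179 CPM in untreated gp1-2, had a log2 fold change of -0.76 ± 0.19 (adjusted p = 0.0062, edgeR), and lost its call in DESeq2 (-0.75). CRK41 (0.72) lost it without untreated gp1-2 replicate 1 (0.54). CRK2 (-0.27) lost it without untreated replicate 2 or volatile replicate 1 or 2 of gp1-2 (-0.29 to -0.21). CRK8 (0.53) lost it without any 1 untreated gp1-2 library or volatile replicate 1 (0.33 to 0.56), and CRK21 (-0.50) without untreated replicate 1 or 3 or volatile replicate 1 or 2 (-0.48 to -0.36). CRK12 (0.42) and CRK22 (0.26) lost theirs without any 1 untreated gp1-2 library or volatile replicate 2 or 3 (0.36 to 0.45 and 0.23 to 0.28). CRK10 (-0.54) lost it without untreated replicate 1 or 2 or any 1 volatile library of gp1-2 (-0.58 to -0.45). CRK18 (-0.29) did so without these libraries or wild-type volatile replicate 2 (-0.32 to -0.19). CRK9 (0.29) lost its call without any 1 gp1-2 library, untreated wild-type replicate 2 or wild-type volatile replicate 1 (0.26 to 0.32). Other settings also ended some of these calls. CRK8 lost its call in DESeq2 (0.55), CRK22 with no filter on low counts (0.26), and CRK2, CRK18 and CRK21 with upper-quartile scaling (-0.22, -0.24 and -0.45). CRK12 and CRK22 lost theirs with replicate 3 left out of each group (0.35 and 0.25).

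In wild type the genes near the detection limit gave the less certain calls. CRK36, at 0.20, 0 and 0.0647 CPM with volatiles, against 0.406, 0.536 and 0.0956 CPM without, had a log2 fold change of -2.0 ± 0.69. Its groups overlapped, the call was lost without untreated replicate 1 or 2 or volatile replicate 2 or 3 of wild type (-1.93 to -1.45), and the value was -3.26 without volatile replicate 1. CRK45, at 0.267, 0.724 and 0.129 CPM with volatiles, against 1.01, 0.671 and 1.05 CPM without, had -1.25 ± 0.41. CRK45 also overlapped between the groups, lost its call without untreated or volatile replicate 1 or 3 (-1.16 to -0.84) and with replicate 3 left out of each group (-0.75), and was at -2.15 without volatile replicate 2. CRK24 had 6 counts over wild type with volatiles and 0 without, at least 1.76-fold higher, and its call was lost without untreated replicate 1 or 2 or volatile replicate 3, with replicate 3 left out of each group, and in DESeq2. CRK5 (1.28) and CRK25 (-0.47) lost their calls without untreated replicate 1 or 2 or volatile replicate 2 or 3 (0.93 to 1.24 and -0.45 to -0.36). CRK14 (-0.88) lost it without untreated or volatile replicate 3 (-0.62 to -0.60), and was at -0.34 with replicate 3 left out of each group. CRK12 (1.00) was at 0.66 without untreated replicate 2, and lost its call with replicate 3 left out of each group (0.86).

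The interaction subtracts the volatile response of wild type from that of gp1-2. It was called for 3 members by edgeR (8.57%, background 2.80%). DESeq2 called it for 8 members, adding CRK11, CRK14, CRK17, CRK19 and CRK45, and for 938 of the genes tested, against 580 by edgeR. CRK18 and CRK9 were called positive (background 1.48%) and CRK40 negative (background 1.32%). CRK18 was lower with volatiles in both genotypes, by 0.29 ± 0.10 in gp1-2 and by 1.58 ± 0.11 in wild type, and the difference was 1.29 ± 0.15 (adjusted p = 0.00037, edgeR). CRK9 was at 0.29 ± 0.10 in gp1-2 and -0.85 ± 0.14 in wild type, a difference of 1.15 ± 0.17 (adjusted p = 0.0023, edgeR). For CRK40 the change was 0.44 ± 0.20 in gp1-2, which was not called, and 1.73 ± 0.21 in wild type, a difference of -1.29 ± 0.29 (adjusted p = 0.026, edgeR). The calls of CRK18 and CRK9 held in each fit. That of CRK40 was lost without any 1 gp1-2 library with volatiles, untreated gp1-2 replicate 2, untreated wild-type replicate 2 or wild-type volatile replicate 1 (-1.36 to -1.19). For genes near 0 in wild type, such as CRK7 (2.45 ± 1.05) and CRK6 (1.36 ± 0.93), the interaction had a wide error and was not called.

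Related genes were compared as a frame for these values. Of 10 further CRK genes, 7 passed the filter, and 5 were called higher and 1 lower in gp1-2 with volatiles, and 4 higher and 1 lower without. In this and the next lists the background over the genes tested was 22.6% higher and 23.3% lower with volatiles, and 20.0% higher and 17.2% lower without. With volatiles and without, the log2 fold changes were 3.83 and 3.14 for CRK31, 3.03 and 2.46 for CRK32, and -2.52 and -1.51 for CRK30, while AT4G00960 was called with volatiles only (2.33). CRK32 was also higher with volatiles in gp1-2 (1.36). Among 10 proteins with DUF26 domains and no kinase, 4 were higher and 2 lower in gp1-2 in each condition, the lower calls being near the background share. These include the PDLPs, which sit at the plasmodesmata that link plant cells. PDLP5 (RefSeq symbol HWI1), which limits passage through them, had 2.48 with volatiles and 1.52 without, PDLP1 2.07 and 2.31, and PDLP3 -1.42 and -1.04. The secreted DUF26 proteins AT3G22060 (3.83 and 3.40) and AT5G48540 (2.67 and 2.02) were higher in both conditions.

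Known partners and outputs of CRKs were read next. Of 10 such genes, 8 were called higher in gp1-2 with volatiles and 6 without, and the rest were not called. RBOHD, the oxidase that releases reactive oxygen species outside the cell, had log2 fold changes of 1.37 with volatiles and 1.13 without. The callose synthase CALS1 had 1.24 and 1.08, and BIK1, a kinase that acts below immune receptors, was at 1.21 with volatiles. The mitogen-activated kinase MPK3 was at 1.78 with volatiles, and in wild type it was lower with volatiles by 1.43 ± 0.13. The 8 salicylate markers were all called higher in gp1-2 in both conditions. With volatiles their log2 fold changes were 12.51 for PR1, 11.42 for BGL2 (PR2), 7.21 for PR5, 5.18 for WRKY70, 4.22 for PAD4, 4.15 for the synthesis gene EDS16 (ICS1), 2.53 for EDS1 and 1.40 for NPR1. Without bacteria they were 11.22 for PR1, 5.22 for PR5, 4.30 for EDS16, 3.69 for PAD4, 3.46 for WRKY70, 2.63 for EDS1 and 1.08 for NPR1. BGL2 had 5497, 6963 and 7590 counts in untreated gp1-2, against 1, 0 and 2 in untreated wild type, a ratio of 4869 (95% counting interval 1666 to 23610). Within gp1-2, 3 of the 8 markers were called higher with volatiles than without (background 14.7%), BGL2 (1.44), PR5 (1.28) and PR1 (1.22). In the same comparison 2 were called lower (background 17.6%), WRKY70 (-0.62) and NPR1 (-0.35). Within wild type 1 was called higher (background 14.8%) and 4 lower (background 15.3%) with volatiles than without. The higher one was BGL2, with 16 counts with volatiles against 3 without, a ratio of 4.69 (95% counting interval 1.34 to 25.1). The lower ones were WRKY70 (-2.34), PR5 (-0.71), NPR1 (-0.66) and PAD4 (-0.47). PR5 (1.99) and WRKY70 (1.72) were also called in the interaction.

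Markers of root and shoot tissue were read because whole seedlings were used, where fewer cells of a type and less RNA per cell cannot be told apart. Of 12 root markers, 1 was called in each condition, lower in gp1-2. Their summed level was 2533 to 2813 CPM in gp1-2 with volatiles, 2609 to 2750 CPM in untreated gp1-2, 3059 to 3123 CPM in wild type with volatiles and 2783 to 2974 CPM in untreated wild type. Nearly all of the root sum came from PYK10. Its mean was 2621 CPM in gp1-2 with volatiles, 2585 in untreated gp1-2, 2992 in wild type with volatiles and 2738 in untreated wild type. Of 11 shoot markers, 7 were called with volatiles and 6 without, each of them lower in gp1-2. They summed to 7017 to 8179 CPM in gp1-2 with volatiles, 10110 to 10490 CPM in untreated gp1-2, 18360 to 20800 CPM in wild type with volatiles and 16590 to 21540 CPM in untreated wild type. Most of this sum came from photosynthesis genes such as CAB3, which fell by 2.36 with volatiles and by 1.69 without. The part of these differences in the CRK values was not tested.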

How the data were processed

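Per the submitters' processing notes, Trimmomatic 0.36, HISAT2 2.1.0, HTSeq 0.9.1 and the TAIR10 build were used; their settings, the annotation release and the strand setting are not given in the sources used here. The authors deposited whole-number read counts per gene for 12 libraries, which were grouped by their titles; the series' design text calls the replicates biological. Genes were kept by filterByExpr (20736 of 33602), scaled by TMM and tested by quasi-likelihood F tests in edgeR, with a coefficient per group (edgeR 4.0.16, limma 3.58.1, R 4.3.3). The SE is the log2 fold change divided by the root of its F statistic. For a large difference against a group with few counts it can be smaller than the counting error. The scripts were tested on simulated data. CPM uses the scaled library totals and is given as mean ± SD (n = 3).

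A group with 0 counts was set to a floor of 3 counts over the group, and 1 to 3 counts were given as a ratio with an exact 95% interval; both cover counting error only, since reads are not independent molecules. Gene models, symbols and upstream sequences were looked up by identifier in RefSeq's TAIR10.1 assembly, since the table holds no coordinates. The members, the comparison lists and the rule for naming genes were chosen with earlier results of these data known. By that rule, values in each library are given for the 3 largest called rises and falls of each comparison (mean of at least 1 CPM), members called in the interaction, and the 3 highest per kb; listed comparison genes are named where called with a log2 fold change of at least 1 in size. The alternatives were other scalings, no filter, DESeq2 1.42.0, a replicate block, leaving out each library, and leaving out replicate 3 of each group, the last added after the data had been seen. Between the untreated genotypes the 3 pairs of same-numbered libraries correlated at 0.113 to 0.218 in their deviations from the group means, so blocked values are given beside that comparison where they change a call; in the other comparisons not every pair was over 0.1.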

Additional observations from a re-analysis of the deposited data

Results flagged for a closer look

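The effect of volatiles differed between gp1-2 and wild type, by the interaction term of edgeR's fit, for CRK18 (1.29), CRK9 (RefSeq symbol EP1, 1.15) and CRK40 (-1.29), as log2 differences. CRK18 was lower with volatiles in both genotypes, and by less in gp1-2. Its call in gp1-2 was lost in 6 of the 12 fits that left out a library, and with upper-quartile scaling. CRK9 was higher with volatiles in gp1-2 and lower in wild type, with the call in gp1-2 lost in 8 of the 12 fits that left out a library. CRK40 was higher with volatiles in wild type and not called in gp1-2, and its interaction call was lost in 6 of those fits.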

How the results depend on the processing

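No called value changed direction under any alternative. In the count of members called, the fits that left out 1 library gave 28 to 30 for genotype without bacteria, 32 to 34 for genotype with volatiles, 9 to 18 for volatiles in gp1-2, 10 to 16 for volatiles in wild type and 2 to 5 for the interaction. The count for volatiles in gp1-2, 17 with all libraries, was 9 and 11 without untreated replicates 1 and 2 of gp1-2, and 11 without either of gp1-2 volatile replicates 1 and 2. The interaction count, 3 with all libraries, was 5 without untreated wild-type replicate 1, 8 in DESeq2 and 7 with a replicate block. Over the genes tested, these 4 fits called the interaction for 580, 542, 938 and 1038 genes. Without replicate 3 of each group the 5 counts were 28, 31, 16, 12 and 4. With the replicate block they were 30, 34, 17, 17 and 7. In genotype without bacteria the block added CRK10 and CRK41 and changed no other call. In the other comparisons the replicate numbers were not taken as pairs: over all groups, correlations of same-numbered libraries ran from -0.032 to 0.253, 9 of 18 were over 0.1, and 9 of 12 libraries correlated best with their own number. Upper-quartile scaling moved the median of all genes to -0.11 (genotype without bacteria) and -0.13 (with volatiles) on the log2 scale. The cause of these shifts was not tested. Depth limits the values of the members near 0 in wild type, where volatile effects carry wide errors.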
